A study of Mus musculus with 37 samples.

Results

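The complement genes described here are C3, Cfb, Cfd, C4b, C2, C1qa, C1qb and C1qc, measured in brown adipose tissue (BAT) of BXD mice. They were chosen by gene symbol, and each of the 8 had 1 probe set among the 41155 transcripts of the array table that are not array controls, which carry 24657 gene symbols. The tissue came from male mice of 35 BXD strains and of their parents, C57BL/6J and DBA/2J. The BXD strains are recombinant inbred lines, each homozygous for a fixed mixture of C57BL/6J and DBA/2J alleles. All animals ate chow (Harlan 2018), were fasted overnight and were taken at 29 weeks of age per the labels, under isoflurane with cardiac perfusion. RNA of about 5 animals per strain was pooled before hybridization to 1 array, so each array is 1 pool and no strain, parent or BXD, has a replicate. Spread over strains therefore contains genetic, handling and dissection differences together, which cannot be told apart, and the labels name no batch.

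Complement is a chain of plasma proteases and their receptors that marks particles for removal. C1q, built from the A, B and C chains that C1qa, C1qb and C1qc encode, binds immune complexes and dying cells and starts the classical pathway, and it is made mainly by macrophages and dendritic cells. C4 and C2 form the classical enzyme that splits C3, the protein on which all routes converge. Factor B, from Cfb, takes the place of C2 in the alternative pathway, and factor D, from Cfd, is the protease that activates factor B. Factor D, also called adipsin, is secreted by adipocytes, and fat secretes C3 too. The liver makes most of the circulating C3, C4, C2 and factor B, and nearly all of the terminal components of the membrane attack complex.

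In the RefSeq order of GRCm38.p6, C1qb, C1qc and C1qa are direct neighbours on chromosome 4, with 0 protein-coding genes between them. Cfb and C2 are direct neighbours on chromosome 17, in the class III region of the major histocompatibility complex, where C4b also lies. C3 is on chromosome 17 as well, 366 protein-coding genes further on, and Cfd is on chromosome 10. C4b has a near-identical copy, C4a, on the same chromosome. How the array's probes divide between these copies is not known, so values of C4b are uncertain to that extent.

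Promoter windows were at hand for 4 of the 8 genes, each with 250 bases before and 50 after the transcription start, from RefSeq on GRCm38.p6. Of these genes, C1qb and C1qc covaried most tightly of all pairs of members, and no pair of C3 or Cfd with them passed. The 4 windows at hand are all shown. Each is given 5′ to 3′ on the strand of its gene. Capitals mark matches, on either strand, to GAGGAA, the purine-rich core that PU.1 and other ETS factors of myeloid cells can bind, or to TTGCNNAA, a core that C/EBP factors can bind. The motifs share no match.
C1qb, chr4:136886151-136886450, minus strand: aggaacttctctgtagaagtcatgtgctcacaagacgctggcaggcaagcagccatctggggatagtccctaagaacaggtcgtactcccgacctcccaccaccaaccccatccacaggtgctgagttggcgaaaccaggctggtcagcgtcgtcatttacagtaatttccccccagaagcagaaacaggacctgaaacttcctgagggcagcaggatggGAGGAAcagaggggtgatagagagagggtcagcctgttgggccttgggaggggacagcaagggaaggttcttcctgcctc
C1qc, chr4:136892865-136893164, minus strand: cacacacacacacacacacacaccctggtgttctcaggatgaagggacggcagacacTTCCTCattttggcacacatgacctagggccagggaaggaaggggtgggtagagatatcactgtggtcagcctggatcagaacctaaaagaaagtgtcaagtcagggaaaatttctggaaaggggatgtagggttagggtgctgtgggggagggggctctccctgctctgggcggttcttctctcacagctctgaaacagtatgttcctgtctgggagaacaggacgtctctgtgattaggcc
C3, chr17:57228087-57228386, minus strand: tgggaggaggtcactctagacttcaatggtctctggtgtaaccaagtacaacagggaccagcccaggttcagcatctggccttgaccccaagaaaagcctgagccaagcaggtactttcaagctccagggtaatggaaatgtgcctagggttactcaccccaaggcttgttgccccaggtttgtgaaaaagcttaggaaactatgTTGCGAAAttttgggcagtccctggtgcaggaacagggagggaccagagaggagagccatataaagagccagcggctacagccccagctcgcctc
Cfd, chr10:79890603-79890902, plus strand: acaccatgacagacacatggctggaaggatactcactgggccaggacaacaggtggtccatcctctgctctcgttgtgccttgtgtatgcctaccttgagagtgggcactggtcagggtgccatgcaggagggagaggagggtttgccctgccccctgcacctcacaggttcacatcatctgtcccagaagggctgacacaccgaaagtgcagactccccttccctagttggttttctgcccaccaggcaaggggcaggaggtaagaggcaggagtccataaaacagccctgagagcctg
GAGGAA occurred 1 time in the C1qb window and 1 time, on the opposite strand, in the C1qc window. It was in 28.3% of all 32851 windows of this length. TTGCNNAA occurred 1 time in the C3 window, and it was in 10.8% of all windows. The Cfd window held neither word. A match is a description of the letters and shows no binding.

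Values are in rescaled units, since every array had been brought to a mean of 8 and an SD of 2. One unit is a doubling only if the values were log2 with that SD beforehand, which the sources used here do not state. Values of different probe sets are not compared, because their scales differ. The background limit, 7.94 units, is the 95th percentile of 1128 olfactory receptor probe sets. In mean level over the BXD strains, 7 of the 8 genes were above it. C2 was the exception, at 7.92 ± 0.31 (SD, n = 35), with 19 of 35 strains above the limit. C1qc was above it in 34 strains and the other members in all 35.

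C1qa, the A chain, ran from 8.78 in BXD95 over a median of 9.61 to 10.4 in BXD61. C1qb, the B chain, ran from 10.1 in BXD45 over a median of 10.9 to 11.9 in BXD61. C1qc, the C chain, ran from 7.78 in BXD95 over a median of 8.66 to 9.24 in BXD61. BXD61 was thus the highest strain for each of the chains, and BXD80 was the second for each, at 10.1, 11.8 and 9.19 for C1qa, C1qb and C1qc.

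C4b, the source of C4, ran from 9.93 in BXD95 over a median of 10.8 to 11.7 in BXD79. Cfb, factor B, ran from 8.42 in BXD95 over a median of 9.05 to 9.85 in BXD79. These genes therefore had the same lowest and the same highest strain, and BXD61 was the second highest for both, at 11.6 for C4b and 9.80 for Cfb. C2, the neighbour of Cfb, ran from 7.25 in BXD90 over a median of 7.95 to 8.69 in BXD80, so its lowest strain was another one.

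C3, the hub of the cascade, had the narrowest range of the members, from 13.6 in BXD97 over a median of 14.1 to 14.5 in BXD70. Cfd, adipsin, had the widest, from 10.6 in BXD64 over a median of 11.7 to 13.03 in BXD49. Its range of 2.40 units was exceeded by 3.74% of all transcripts. BXD49 stood 0.359 units above the second strain, BXD55. Of the 8 members, 7 had a range of at least 1 unit, all but C3, where 40.7% of all transcripts did and 35.2% of those above background. At 1.5 units the count was 4, namely Cfd, C1qb, C4b and C1qa, against 17.9% of all transcripts.

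**Figure D1:**
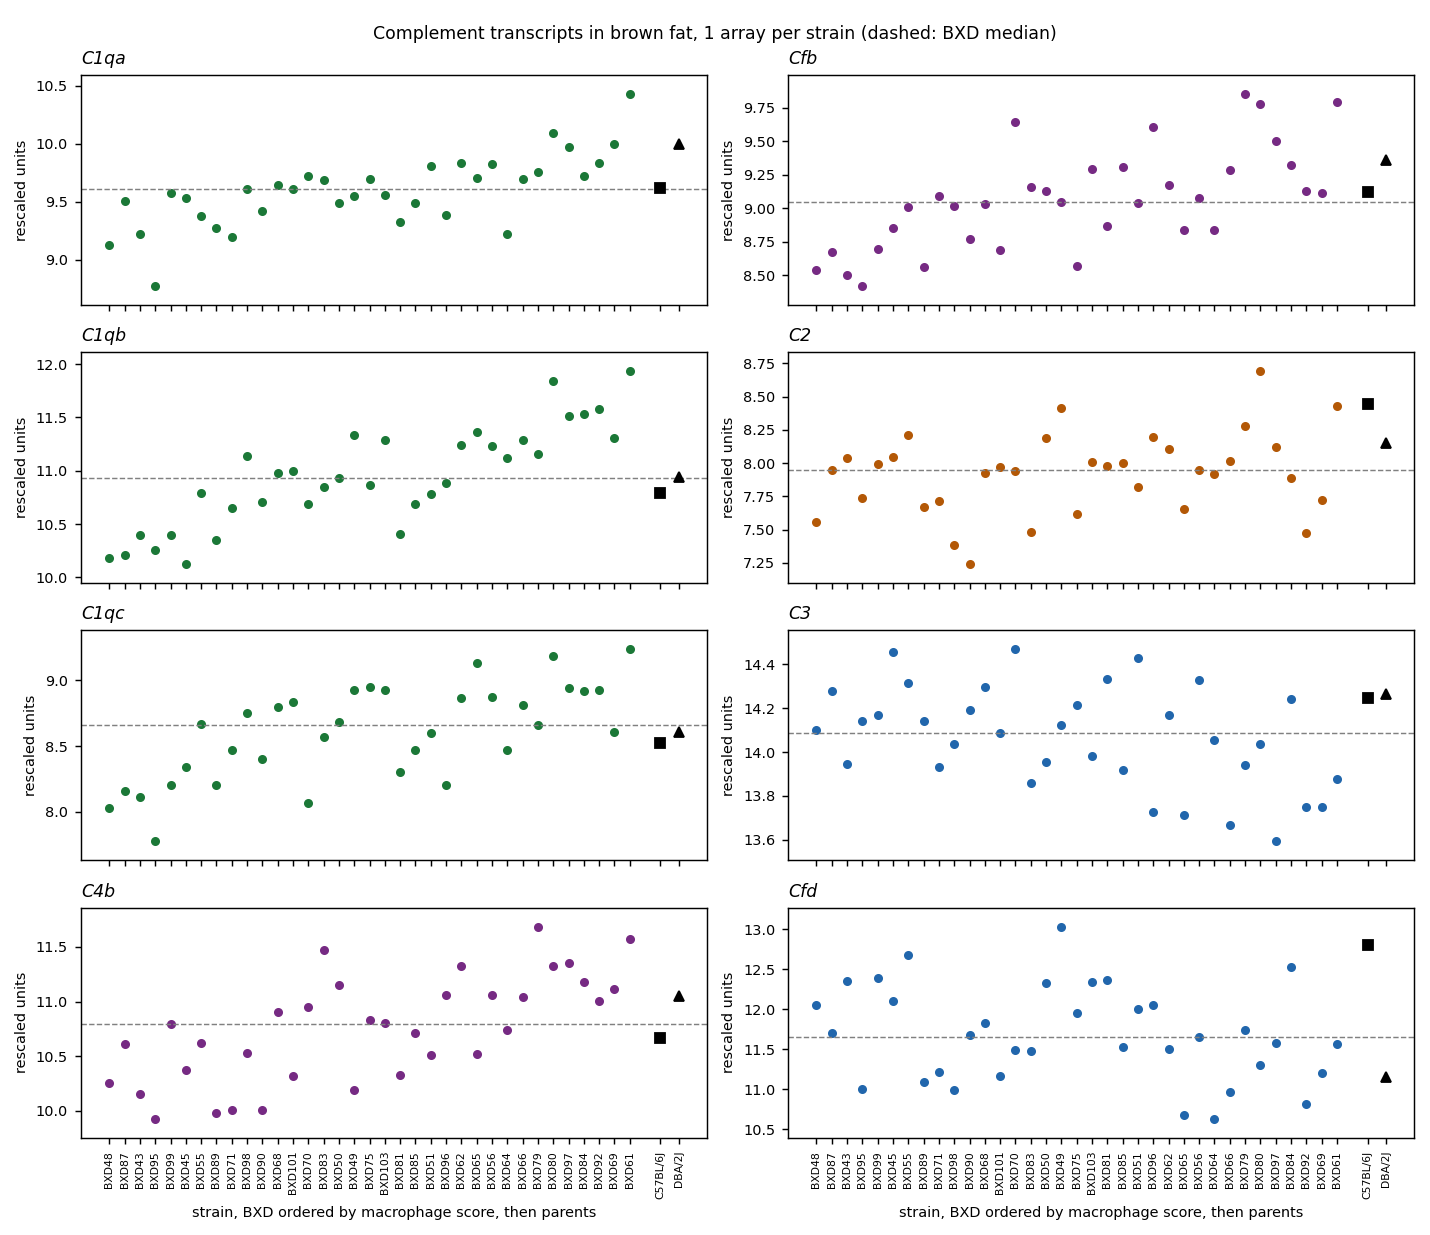
Level of each complement transcript (y axis, rescaled units, own scale per panel) in the 35 BXD strains, ordered from the lowest to the highest macrophage score, with C57BL/6J (square) and DBA/2J (triangle) at the right. Each point is 1 array, the dashed line is the BXD median, and C1qa, C1qb, C1qc, C4b and Cfb climb to the right, where C3 and Cfd do not.

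Between the parents, Cfd was the member that differed most. It was at 12.8 units in C57BL/6J and 11.2 in DBA/2J, a difference of -1.65 (DBA/2J minus C57BL/6J), and 27 of 35 BXD strains lay between these values. Of the 8 members, 1 thus differed by at least 1 unit, where 2.44% of all transcripts did and 1.4% did so with the lower value in DBA/2J. A larger parental difference in either direction was seen for 0.622% of transcripts. BXD49 was the 1 BXD strain above C57BL/6J, and 7 were below DBA/2J.

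The other members differed less between the parents, by 0.39 for C4b, 0.38 for C1qa, 0.24 for Cfb, 0.15 for C1qb, 0.08 for C1qc and 0.02 for C3, all with the higher value in DBA/2J. C2 was 0.29 lower in DBA/2J, and 1 of 35 BXD strains was above its C57BL/6J level of 8.44. For C3 no BXD strain fell between the parents, at 14.2 in C57BL/6J and 14.3 in DBA/2J, and 27 of 35 strains were below both. There is 1 array for each parent, so none of these differences has a test.

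To ask whether a gene followed the resident macrophages, the fat cells or liver RNA, a score was made for each cell type. It is the mean z-score of a marker list over the 35 BXD strains, and no complement gene is in any list. All transcripts were then fitted on the score with limma, and slopes are in rescaled units per SD of the score. In bulk tissue, fewer cells of a type and less RNA per cell cannot be told apart. Markers of the labelled tissue were present, with 20 of 20 adipocyte genes and all 12 of the brown adipocyte genes found above background. Of the macrophage list 18 of 22 genes were above it, of the fibroblast list 14 of 14, of the interferon list 15 of 20, of the liver list 6 of 20 and of the lymphocyte list 3 of 13. List genes moved together to different degrees, with a median pairwise r of 0.91 for liver, 0.61 for fibroblast, 0.52 for macrophage, 0.43 for interferon and 0.17 for adipocyte genes. The adipocyte score is thus a weak summary of its list.

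With the macrophage score, 5 of 8 members rose (limma, adjusted p under the threshold), against 2.31% of all transcripts higher and 3.41% in either direction. The median slope of the 8 was 0.25, against -0.00055 over all transcripts. C1qb rose by 0.41 ± 0.04 units per SD (SE, adjusted p = 2e-08). C1qa rose by 0.24 ± 0.03 (adjusted p = 4.32e-06), C1qc by 0.26 ± 0.04 (adjusted p = 0.000199), Cfb by 0.27 ± 0.05 (adjusted p = 0.000199) and C4b by 0.33 ± 0.06 (adjusted p = 0.000506). Pearson's r with the score was 0.86 for C1qb, 0.79 for C1qa, 0.71 for C1qc, 0.71 for Cfb and 0.68 for C4b, with a Spearman's rho of 0.66 to 0.85. Without BXD48 and BXD61, the strains at the ends of the score, r for these genes was still 0.64 to 0.84. So the relation did not rest on BXD61, which had the highest score, 2.33, against 1.02 in the second strain, BXD69.

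The other 3 members did not pass. C2 had a slope of 0.09 ± 0.05 (adjusted p = 0.406), with an r of 0.30 that was 0.10 without BXD48 and BXD61. Cfd had a slope of -0.13 ± 0.10 (adjusted p = 0.622, r = -0.21). C3 had a slope of -0.09 ± 0.04 (adjusted p = 0.194), and its r was -0.40. A contrast with C1qb, the member with the highest r, would restate its choice, so no test of the difference between members is given.

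**Figure D2:**
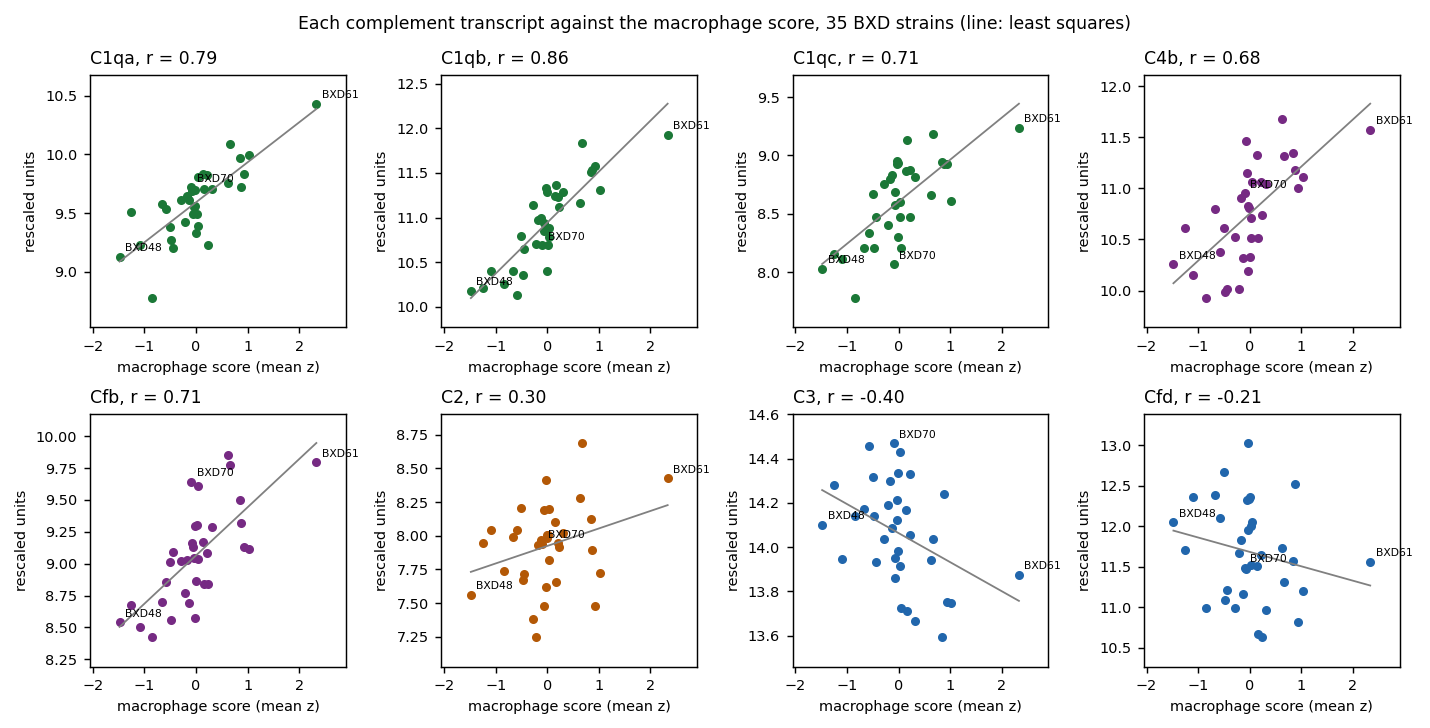
Level of each complement transcript (y axis, rescaled units) against the macrophage score (x axis, mean z of 22 marker genes) in 35 BXD strains, with the least squares line. C1qb follows the score most closely (r = 0.86), whereas C3 (r = -0.40) and Cfd (r = -0.21) slope downward, and BXD48, BXD61 and BXD70 are named.

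The fibroblast score gave nearly the same picture, since the macrophage and fibroblast scores were correlated over strains (r = 0.82, rho = 0.81, permutation p = 1e-05, and r = 0.79 without BXD48 and BXD61). Here 5 members rose and 1 fell, against 2.86% and 1.6% of all transcripts, or 4.47% in either direction. C4b rose by 0.40 ± 0.05 units per SD (adjusted p = 2.74e-07, r = 0.82), C1qb by 0.36 ± 0.05, C1qa by 0.22 ± 0.04, C1qc by 0.24 ± 0.05 and Cfb by 0.24 ± 0.05. C3 fell by 0.12 ± 0.03 (adjusted p = 0.026, r = -0.54). C3 no longer passed without BXD45 (adjusted p = 0.0513), BXD69 (0.0514) or BXD97 (0.0957), without BXD61, BXD80 and BXD95 together (0.0585), with ranks (0.0765), with the score in rescaled units (0.0586) or beside the macrophage score (0.419). Its slope stayed between -0.11 and -0.15 in the fits on values, so the calls moved more than the slope. With both scores in the same model, C1qb was the 1 member that passed for the macrophage score (slope 0.33, adjusted p = 0.0233). This model was chosen after the data had been seen, and with scores correlated at an r of 0.82 it separates them poorly. The macrophage slopes of Cfb (0.23), C1qc (0.19) and C1qa (0.19) were below their single-score values of 0.27, 0.26 and 0.24. These did not pass, with adjusted p-values of 0.225 to 0.475, and the macrophage slope of C4b was 0.003. For the fibroblast score C4b was the 1 member that passed (slope 0.40, adjusted p = 0.00871), and the fibroblast slopes of Cfb, C1qa, C1qb and C1qc were 0.05 to 0.09.

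Fibroblasts were not the only cells whose markers moved with C4b. It was the 1 member that rose with the muscle score (0.28 ± 0.07, adjusted p = 0.0143), where 1.86% of transcripts passed, and it did not pass without BXD95. With C4b itself as the covariate, 14 of 15 muscle genes and 12 of 14 fibroblast genes moved with it, among 4.21% of all transcripts called. The muscle and fibroblast scores had an r of 0.48 (rho = 0.53, permutation p = 0.00298). With muscle as a second covariate the counts of members were 5 for the macrophage and 6 for the fibroblast score, with no share over all transcripts counted.

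With the adipocyte score, 0 of 8 members passed (limma), where 2.09% of all transcripts did. At an unadjusted p under 0.05, 1 member passed, Cfb (slope 0.13 ± 0.06, adjusted p = 0.258). Cfd, the adipsin gene, had an r of 0.01 with it and C3 an r of 0.03. The score made from rescaled units in place of z-scores called 2 members. These were Cfb (slope 0.26, adjusted p = 0.000926) and C4b (slope 0.27, adjusted p = 0.0139), whose slope was 0.08 with z-scores. In that score, genes with a wide spread such as Lep (SD 1.12) weigh more than genes such as Fabp4 (SD 0.07). The adipocyte count thus depended on how the list genes were weighted. Single adipocyte genes went both ways. With C3 as the covariate, 1 of the 20 rose and 2 fell, with a median r of 0.10. Retn, which encodes the adipocyte hormone resistin, rose (r = 0.69, adjusted p = 0.002) and Lep, which encodes leptin, fell (r = -0.62, adjusted p = 0.01), among 1.46% of all transcripts called. Npr3, a natriuretic peptide clearance receptor, fell with C3 too (r = -0.61), and Elovl3, a brown fat fatty acid elongase, rose (r = 0.62).

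Of the 20 adipocyte genes, 5 rose with Cfb, 3 with C1qb, 2 with C1qa and 0 with C1qc, and 4 rose and 1 fell with C4b. Lep rose with Cfb (r = 0.61, adjusted p = 0.00585), C1qb (r = 0.60), C4b (r = 0.58) and C1qa (r = 0.53), in fits that called 3.48%, 3.03%, 4.21% and 1.89% of all transcripts. With C1qc it did not pass (r = 0.47, adjusted p = 0.137). Sncg, gamma-synuclein, which is abundant in white adipocytes, rose with Cfb, C1qb, C4b and C1qa too, with an r of 0.58 to 0.73. No transcript passed with Cfd as the covariate (limma, 0% called), and its median r with the 20 adipocyte genes was -0.0086. Among them Retn had an r of 0.61 with Cfd (adjusted p = 0.263) and Npr3 one of -0.42 (adjusted p = 0.61). The brown adipocyte score called 1 member, C4b, which fell by 0.24 ± 0.07 (adjusted p = 0.0499), where 3.05% of transcripts passed. C3 (slope 0.12 ± 0.03, adjusted p = 0.0511) and C1qb (slope -0.23 ± 0.07, adjusted p = 0.053) lay just outside. This count depended on single strains. It was 0 without any of BXD45, BXD48, BXD50, BXD51, BXD55, BXD61, BXD64, BXD69, BXD79, BXD80, BXD81, BXD83, BXD85, BXD87, BXD90, BXD95, BXD96, BXD97, BXD98 or BXD103, 2 without BXD43, BXD62, BXD65, BXD66, BXD70 or BXD101, and 3 without BXD89 or BXD92.

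**Figure D3:**
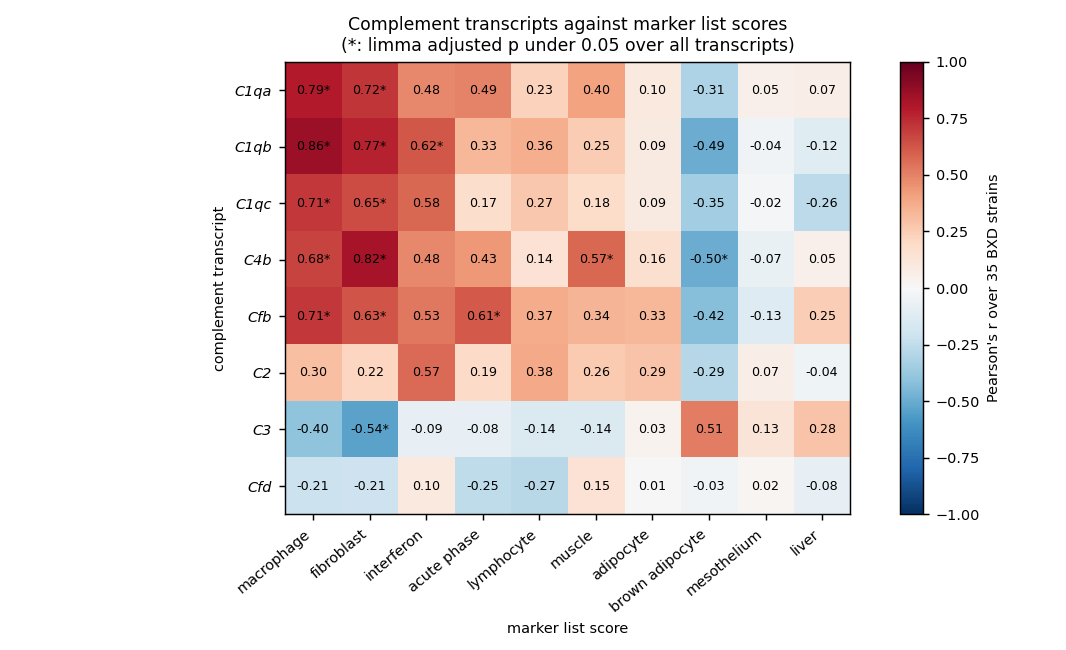
Pearson's r (colour and number) of each complement transcript, in rows, with each marker list score, in columns, over 35 BXD strains. Asterisks mark a limma adjusted p under 0.05 over all transcripts, and they fill the macrophage and fibroblast columns for C1qa, C1qb, C1qc, C4b and Cfb, with 0 in the adipocyte and liver columns.

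Liver RNA was a distinct matter, since the BXD70 and DBA/2J arrays carried liver transcripts. The mean level of the 20 liver genes was 11.4 units in BXD70, 9.74 in DBA/2J and 7.36 in C57BL/6J, against a BXD median of 7.27. BXD70 was the highest BXD strain for 20 of 20 liver genes. DBA/2J was above the 34 other BXD strains for 18 of the 20, and C57BL/6J for 0. Among the 8 members BXD70 was the highest for 1, C3, at 14.5, and the margin over BXD45 was small (14.47 against 14.455). Over all transcripts BXD70 was the highest for 3.15%. DBA/2J was above the 34 strains for 0 of 8 members, against 1.47% of all transcripts. In SDs of the other 34 strains, BXD70 lay 1.86 above their mean for C3, 1.60 above for Cfb and -1.55 for C1qc, with the other 5 members within 0.55.

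Part of the other complement genes gave other values on these arrays. Of the 42 other complement genes, BXD70 was the highest strain for 15 and DBA/2J above the 34 strains for 11. Among the 7 terminal components the counts were 6 and 5. C9, which forms the pore, was at 10.04 in BXD70 and 9.26 in DBA/2J against a median of 7.18 in the other 34 strains, whose highest value was 7.60. Cfi, which cleaves C3b and C4b, was at 9.27 in BXD70 and 7.59 in DBA/2J against a median of 6.78. Hc, which encodes C5, was at 8.47 and 7.71 against 6.76. The DBA/2J values of Cfi and Hc were below the background limit, as were the medians of C9, Cfi and Hc. None of the 9 receptors was highest in BXD70. C4a, the copy of C4b, was at 7.06 in BXD70 and 6.91 in DBA/2J against a median of 6.05, all below the background limit.

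In the fit on the liver score, where BXD70 stood at 5.16 and the second strain, BXD66, at 0.61, 0 of 8 members passed (limma), and 0.666% of all transcripts did. At an unadjusted p under 0.05 the count was also 0. The r was 0.28 for C3 and 0.25 for Cfb, and without BXD70 it was -0.05 and -0.04. Of the 42 other complement genes 11 rose with the liver score, and without BXD70, or with ranks, the count was 0.

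**Figure D4:**
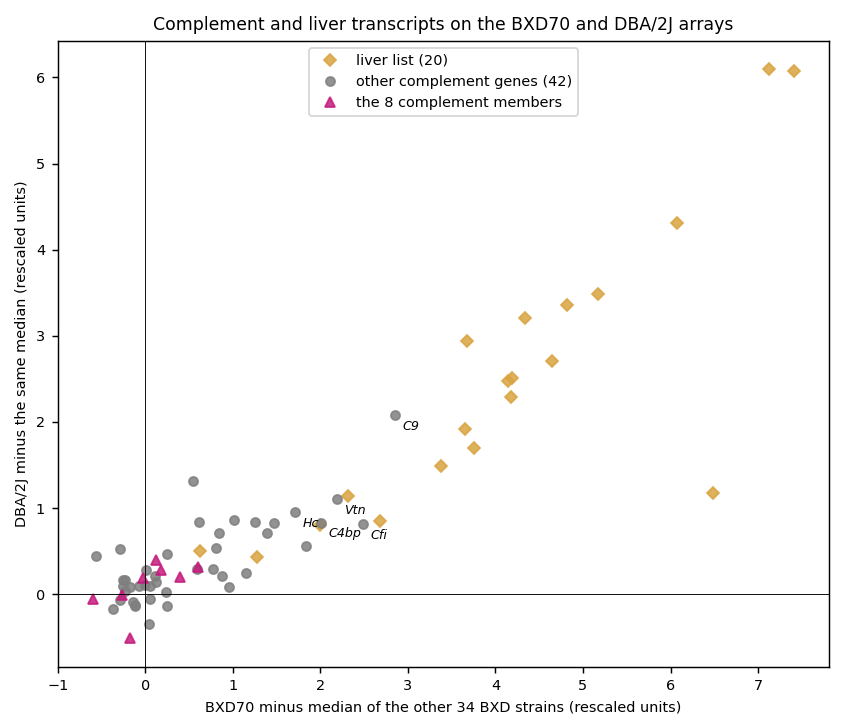
BXD70 minus the median of the other 34 BXD strains (x axis) against DBA/2J minus the same median (y axis), in rescaled units, for 20 liver genes, 42 other complement genes and the 8 members, each point 1 transcript. The 8 members lie near the origin, between -0.60 and 0.60 on the x axis, where C9, Vtn, Cfi, C4bp and Hc run out along the liver genes.

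The interferon score called 1 member, C1qb (slope 0.30 ± 0.06, adjusted p = 0.0169), where 0.282% of all transcripts passed. C1qc (slope 0.21 ± 0.05, adjusted p = 0.0569), C2 (0.17 ± 0.04, adjusted p = 0.0729) and Cfb (0.20 ± 0.05, adjusted p = 0.144) lay outside. So did C4b (0.23 ± 0.07, adjusted p = 0.225) and C1qa (0.15 ± 0.05, adjusted p = 0.248). At an unadjusted p under 0.05, 6 of 8 members passed, with no share over all transcripts counted. The median slope of the 8 was 0.19, against -0.003 over all transcripts. For C2 this was the score with its highest r, 0.57, against 0.30 for macrophages. C1qb no longer passed without BXD61 (slope 0.26, adjusted p = 0.0632), without BXD80 (0.25, adjusted p = 0.169), without BXD61, BXD80 and BXD95 together (0.19, adjusted p = 0.782) or with ranks (adjusted p = 0.372), and BXD80 had the highest interferon score, 1.74. The count was 2 without BXD55, BXD64, BXD66, BXD69, BXD75, BXD92 or BXD98 and 3 without BXD99. With C1qb as the covariate, 7 of 20 interferon genes moved with it, in a fit that called 3.03% of transcripts. Among them were Irf7 (r = 0.64, adjusted p = 0.0035), a regulator of the response, and Gbp2 (r = 0.58), an interferon-induced GTPase. With C1qc the count was 3 of 20, in a fit that called 0.768% of transcripts.

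The acute-phase score, from genes such as Saa3 and Lcn2 that inflammation induces, called 1 member, Cfb (slope 0.23 ± 0.05, adjusted p = 0.0144), where 0.697% of transcripts passed. The median pairwise r of this list was 0.19, so its score is a weak summary too. BXD70 was the highest strain for 6 of its 12 genes. The r of the acute-phase score with the liver score was 0.74, and 0.21 without BXD70. It is thus in part a measure of the BXD70 array. BXD70 had the highest value of this score too, 2.25, and without BXD70 the count was 5. For the fit without BXD70 the share of all transcripts called was not counted. With Cfb as the covariate, 4 of 12 acute-phase genes rose, in a fit that called 3.48% of transcripts. They were Saa3 (r = 0.65), Lbp (r = 0.65), Serpina3n (r = 0.60) and Orm2 (r = 0.52). Lbp, the carrier of bacterial lipopolysaccharide, fell with C3 (r = -0.64, adjusted p = 0.00642). The lymphocyte and mesothelium scores called 0 of 8 members each (limma), where 0.272% and 7.81% of transcripts passed, and 3 and 0 members did so at an unadjusted p under 0.05.

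Set against each other, 8 of 28 pairs of members passed in both of their fits, and all 8 moved together. The shares of all transcripts called with each covariate ran from 0% for Cfd and C2 to 4.21% for C4b. The closest pair was C1qb with C1qc (r = 0.88, rho = 0.87, larger adjusted p of its fits 2.98e-08). C1qa had an r of 0.75 with both. Cfb and C4b had an r of 0.76 (larger adjusted p = 0.000253). C4b with C1qa had an r of 0.74, Cfb with C1qb 0.66, Cfb with C1qa 0.65 and C4b with C1qb 0.65. Cfb and C2, direct neighbours in the genome, had an r of 0.54, which passed with Cfb as the covariate (adjusted p = 0.028) and not with C2 (adjusted p = 0.309). Neighbours share alleles in recombinant inbred strains, and the part of this in the correlations was not tested.

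C3 with Cfd had an r of 0.39 (permutation p = 0.0206, larger adjusted p = 0.683). C3 with C1qb had an r of -0.47 (permutation p = 0.00455, larger adjusted p = 0.106). C3 was negative with C1qa, C1qb, C1qc, C4b, Cfb and C2, with an r of -0.01 to -0.47, and none of these passed. Without BXD61 and BXD80, the highest strains for the C1q chains, and BXD95, the lowest for C1qa, C1qc, C4b and Cfb, 4 pairs passed in place of 8. Pairs of Cfb with C1qa and C1qb, of C4b with C1qb and of C1qa with C1qc were lost.

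**Figure D5:**
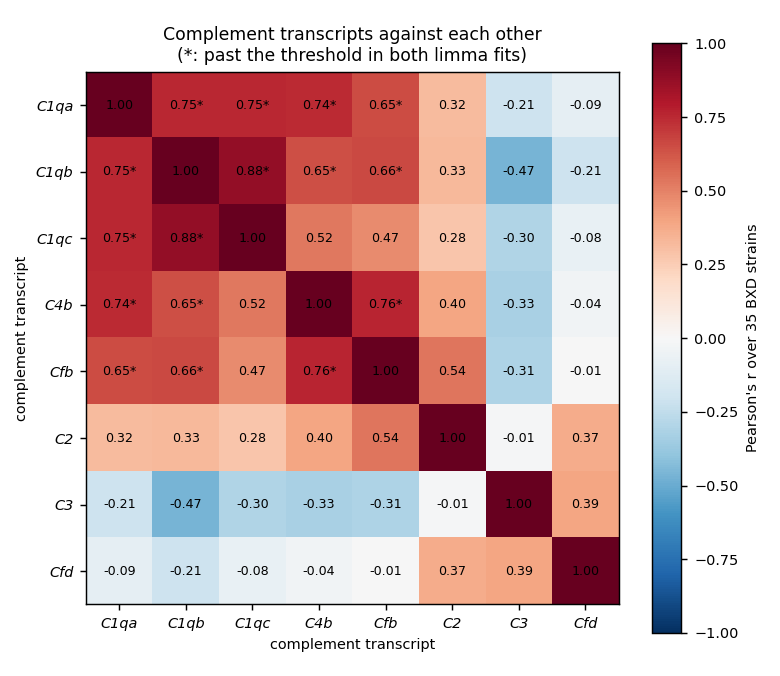
Pearson's r (colour and number) between the complement transcripts over 35 BXD strains, in the same order in rows and columns. Asterisks mark the 8 pairs past the threshold in both limma fits, all among C1qa, C1qb, C1qc, C4b and Cfb, and the closest is C1qb with C1qc at 0.88.

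The other complement genes were fitted on the macrophage score too. Of 42, 11 rose, where 2.31% of all transcripts did, and receptors made up 7 of the 11. The fibroblast score gave the same tally, with 11 of 42 higher and 7 of 9 receptors among them (7 higher without BXD61). C3ar1, the receptor for C3a, rose by 0.37 ± 0.03 units per SD (adjusted p = 1.15e-10), Itgam and Itgb2, the chains of complement receptor 3, by 0.27 ± 0.03 and 0.40 ± 0.05, and Itgax, a chain of complement receptor 4, by 0.40 ± 0.06. C5ar1, Vsig4 and Cd93 rose as well. Of the inhibitors Serping1, which blocks C1, rose by 0.29 ± 0.03 and Cd55 by 0.25 ± 0.05. Cd59b, which blocks the pore, was the 1 gene called lower (adjusted p = 0.0461), a count that was 0 with quantile or median scaling and 0 to 2 without single strains. Properdin, from Cfp, rose by 0.16 ± 0.03. None of the 7 terminal components passed with the macrophage score. With the fibroblast score 1 of them, C8g, was lower (slope -0.18 ± 0.05, adjusted p = 0.0247). It was the 1 gene of the 42 called lower there, a count of 0 to 2 without single strains. Itgax, Vsig4 and Cd55 had mean levels below the background limit.

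The transcripts most alike to each member over the 35 strains, by Pearson's r, were these. For C1qa they were Csf1r, the receptor of the macrophage growth factor (r = 0.83), Ccl6 (0.82) and Pld4 (0.81). For C1qb they were LOC100862132, an uncharacterized locus (0.94), Ptprj (0.86) and Ly86 (0.86). For C1qc they were LOC100862132 (0.89), Pld4 (0.78) and Stab1, a scavenger receptor (0.75). Csf1r, Ly86 and Stab1 are genes of macrophages, and Csf1r is also in the macrophage list.

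For C4b the nearest were Serping1, the inhibitor of C1 (0.86), Nid1, a basement membrane protein (0.84), and Igfbp4, a binding protein of insulin-like growth factors (0.82). For Cfb they were C130026I21Rik (0.79), LOC100861753 (0.78) and Tsc22d1 (0.78), and for C2 Akna (0.70), Parp14 (0.64) and Traf3ip2 (0.63). For C3 they were Gpx8, an endoplasmic reticulum peroxidase (0.83), Stxbp2 (0.77) and Derl1, which acts in protein disposal from the endoplasmic reticulum (0.77). For Cfd they were Hp1bp3 (0.69), Slc43a1 (0.69) and Fxc1 (0.67), and the top values for Cfd and C2 were lower than those of the other members. These were picked as the highest of all named transcripts, so the r values are a description.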

How the data were processed

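The deposited values are scores of 41345 probe sets on 37 Affymetrix MoGene 2.0 arrays: the authors had brought each array to a mean of 8 and an SD of 2. Affymetrix Expression Console is named in the submitters' processing notes. The summary method and log base are not given in the sources used here. A log2 scale had been assumed in planning, and the values were instead used as rescaled scores. Array controls (190) were left out, which leaves 41155 probe sets, and all value columns were matched to strains by name.

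For a gene with several probe sets, the one with the highest mean over the 35 BXD arrays stood for it. Scores are mean z-scores of marker lists, and Cpt1b of the brown adipocyte list was not found. limma 3.58.1 (lmFit and eBayes, R 4.3.3) was run on all probe sets with 1 score, or 1 member, as a continuous covariate, with Benjamini-Hochberg adjustment over all of them and a threshold of 0.05. Its steps were tested on simulated data, in which 200 transcripts were made to follow the macrophage score. Noise with the SD of each transcript was drawn, and the slope was added on top of it. At a slope of 1 SD of this noise per SD of the score, 95.5% were recovered, and at 0.5 SD 6%. A gene that did not pass can thus still follow a score at such a weaker slope. Permutation tests (numpy 2.4.6, two-sided) used 100000 draws, with ranks from scipy 1.17.1. Arrays have no read depth, and their number limits the precision. The p-values measure spread between strain pools. The members and lists were chosen with earlier results of these data known. Named genes are the members, every list gene and, for each member, the 3 named transcripts with the highest r. Alternatives were both parents included, strains left out, quantile or median scaling, a muscle covariate, a filter on dim transcripts, ranks and other scores and thresholds. The share of all transcripts called was counted for the main fits only, so counts from alternative fits have none beside them. The values of 1 other complement gene are not reported here, though the counts include it.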

Additional observations from a re-analysis of the deposited data

How the results depend on the processing

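The members called with the macrophage score were 5 under every alternative scaling, filter, rank, score and added covariate other than the fibroblast score. They were also 5 without any single strain (5 to 5). The count was 1 when the fibroblast score was in the same model. There the slopes of Cfb, C1qa and C1qc were 0.23, 0.19 and 0.19, against 0.27, 0.24 and 0.26 with the single score. The fibroblast count was 6, or 5 to 6 without single strains, and 1 in that joint model, which was chosen after the data had been seen, as was the removal of BXD61, BXD80 and BXD95. The adipocyte count was 0 (0 to 0 without single strains) and 2 with the score in rescaled units. The liver count was 0 throughout (0 to 0). The interferon count was 1, and 2 with both parents included, 2 without dim transcripts, 0 with ranks, 0 without BXD61, BXD80 and BXD95, and 0 to 3 without single strains. Pairs numbered 8, or 8 to 10 without single strains, and 4 without BXD61, BXD80 and BXD95. Ranges of at least 1 unit were seen in 7 members (7 to 7 without single strains) and of at least 1.5 units in 4. The parental count was 1 under both scalings and at 0.5 units. Of the single slopes and pairs, 2985 stayed on their side of the threshold, 22 passed it newly and 25 no longer passed it. Among those that passed in at least 1 of the fits compared, 0 reversed. Direction was not checked where neither fit passed. The slope of C3 on the macrophage score, for example, went from -0.09 to 0.03 beside the fibroblast score. The causes were not tested. The median shift of a value under quantile normalization was 0.0116 units, and the largest 0.166. Averaging over probe sets was not run, since each member has 1. No paired analysis was possible because each strain has 1 array and the labels give no replicate numbers. With 1 array per strain, differences between single strains have no error, and C2, near the background limit, is measured less well than the others.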
